A study of Mus musculus with 12 samples.

Results

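The clustered histone genes are the protein-coding genes whose GENCODE M21 symbol starts with Hist1h, Hist2h, Hist3h or Hist4h. There were 67 of them among the 55401 genes of each count file, 6 for the linker histone H1, 18 for H2A, 18 for H2B, 12 for H3 and 13 for H4. They were measured by RNA-seq in CD45int CD11b+ microglia sorted from mouse brain, in 12 libraries that formed 4 groups of 3. WT-Sham and WT-tFCI came from CX3CR1wt/wt:HDAC3loxp/loxp mice, and miKO-Sham and miKO-tFCI from CX3CR1CreER/wt:HDAC3loxp/loxp mice, so that every group carried the floxed Hdac3 alleles and only miKO also carried CreER in place of one Cx3cr1 allele. CreER is driven by the Cx3cr1 locus, which microglia share with some macrophages, and loss of Hdac3 cannot be told apart from loss of that Cx3cr1 allele by these groups. By the study's methods all animals were young adult males given tamoxifen at least a month before surgery, and each library pooled cells of several hemispheres. The tFCI groups had 60 min of middle cerebral artery occlusion, with cells taken 3 days later by the study's methods, and the Sham groups had the same anaesthesia and exposure of the artery without the occlusion.

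Replication-dependent histone genes supply the proteins that package newly copied DNA. H2A, H2B, H3 and H4 form the nucleosome core and H1 binds the linker DNA between nucleosomes. Their mRNAs are made mainly in S phase, usually without introns, and end in a conserved stem-loop bound by SLBP instead of a poly(A) tail. When DNA synthesis stops these mRNAs are rapidly degraded. In differentiated cells, some of the same genes also give polyadenylated transcripts. The library kit primes reverse transcription on poly(A) tails, so transcripts that end at the stem-loop are captured poorly, and how much of each form was captured was not measured here.

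In this annotation 54 of the 67 genes lay in the large cluster on chromosome 13 (chr13:21715763-23934851, GRCm38), 10 on chromosome 3, 2 on chromosome 11 and 1 on chromosome 6. The proteins are highly alike, counted here as 1 annotated protein per gene, the one nearest the usual length of its type where a gene has several. All 13 H4 genes encode 1 identical protein of 103 residues, the 12 H3 genes encode 2 distinct proteins of 136 residues, and the 18 H2A and 18 H2B genes encode 9 and 11, while each of the 6 H1 genes encodes its own. The stem-loop was found in annotated transcripts of 46 genes, from 21 to 58 bases after the stop codon with a median of 31. A poly(A) signal lay in the last 40 bases of an annotated transcript of 17 genes, of which 14 also had the stem-loop. For some genes, Hist1h2ai, Hist1h3h and Hist1h4k among them, the annotated transcript ends with the stop codon. Nothing beyond such an end could be found, so both counts describe the annotation and do not show that the other genes lack these features. Only 5 genes, all of H2B, had a transcript with more than 1 exon.

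The stem-loops of members described below are printed to show the 3′ end that sets these mRNAs apart, with 5 flanking bases on each side, the 2 arms of the stem in capitals and the 4-base loop between them. They were read from the GENCODE M21 transcripts, 5′ to 3′.
Hist1h1c: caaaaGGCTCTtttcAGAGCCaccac
Hist1h2ae: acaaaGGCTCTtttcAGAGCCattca
Hist1h2be: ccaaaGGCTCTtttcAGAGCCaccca
Hist1h3d: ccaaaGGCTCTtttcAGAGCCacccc
Hist1h3e: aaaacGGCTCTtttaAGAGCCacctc
Hist1h4d: ccaaaGGCCCTtttcAGGGCCactac
Hist2h4: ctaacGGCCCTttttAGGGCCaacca
Hist4h4: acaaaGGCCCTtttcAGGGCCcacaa
The stem and loop of Hist1h1c was shared by 26 genes of types H1, H2A, H2B and H3, and that of Hist1h4d by 7 genes, all of H4.

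RefSeq promoter sequences, from 250 bases before to 50 after the start (GRCm38.p6), matched 62 of the 67 genes. The letters TATAAA, on either strand, were in 56.5% of these promoters against 14.2% of all 27025 promoters in the table. CCAAT was in 85.5% against 37.9%, and in all promoters of H1, H2A, H2B and H3 genes but in 25.0% of the 12 H4 promoters. The octamer ATTTGCAT was in 13 of 62 member promoters and in 1.8% of all, in 7 H2A and 6 H2B promoters. The 120 bases before the start are shown for 4 genes that differed in how they moved, with TATAAA and CCAAT (or their reverse complements) in capitals. Hist1h1b rose after tFCI, Hist1h1c and Hist1h4d were lower in miKO, and Hist4h4 fell after tFCI. These behaviours overlap, since Hist1h1b was also called lower in miKO after tFCI, and Hist1h1c also rose after tFCI in miKO.
Hist1h1b, chr13:21780626-21780745, minus strand: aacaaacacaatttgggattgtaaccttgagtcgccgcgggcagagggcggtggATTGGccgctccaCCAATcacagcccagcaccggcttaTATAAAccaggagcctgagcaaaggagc
Hist1h1c, chr13:23738687-23738806, plus strand: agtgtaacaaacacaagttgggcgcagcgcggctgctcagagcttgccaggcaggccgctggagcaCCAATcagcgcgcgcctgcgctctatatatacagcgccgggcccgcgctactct
Hist1h4d, chr13:23581448-23581567, plus strand: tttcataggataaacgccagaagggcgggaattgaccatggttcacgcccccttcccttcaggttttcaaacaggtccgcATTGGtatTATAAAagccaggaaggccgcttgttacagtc
Hist4h4, chr6:136804432-136804551, minus strand: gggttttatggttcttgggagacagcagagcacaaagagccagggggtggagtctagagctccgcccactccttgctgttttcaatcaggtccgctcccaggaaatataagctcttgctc
Neither set of letters was in the Hist4h4 promoter, which says only that these letters are not in this window.

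Each library held 7697864 to 9452222 counts on genes, and levels are given as CPM, the counts scaled to library size with TMM factors. Hdac3, the targeted histone deacetylase gene, read 35.0, 44.0 and 46.4 CPM in WT-Sham against 25.8, 25.0 and 20.9 in miKO-Sham, and 54.0, 52.9 and 43.9 in WT-tFCI against 36.0, 27.2 and 28.9 in miKO-tFCI. It was lower in miKO in both settings, with a log2 fold change of -0.81 ± 0.16 (SE, edgeR adjusted p = 0.00281) in Sham and -0.71 ± 0.16 (edgeR adjusted p = 0.0127) after tFCI. All 10 microglial markers were detected. Their sum was 29280 to 38680 CPM in WT-Sham, 27250 to 32300 in miKO-Sham, 20940 to 23280 in WT-tFCI and 10480 to 20270 in miKO-tFCI, so the genotypes did not overlap after tFCI, where the mean was 29.0% lower in miKO. Of the 10, 4 were called lower and 1 higher in miKO-Sham than in WT-Sham, and 5 lower in miKO-tFCI than in WT-tFCI. Over all tested genes the shares were 6.8% lower and 8.58% higher in Sham, and 4.71% lower after tFCI. The 10 include Cx3cr1, 1 allele of which CreER replaces in miKO, and neither the sum nor the counts were taken without it. Over the 7 monocyte and macrophage markers, none of them at 0 throughout, the sum was 476 to 759 CPM in WT-Sham, 7242 to 9161 in miKO-Sham, 1516 to 2225 in WT-tFCI and 7028 to 10430 in miKO-tFCI. The lysozyme gene Lyz2 gave 87.4% to 99.4% of these sums. Without it they were 33.8 to 95.8 CPM in WT-Sham, 58.0 to 179.0 in miKO-Sham, 101 to 215 in WT-tFCI and 453 to 677 in miKO-tFCI. The 8 neutrophil markers summed to 815 CPM in WT-Sham replicate 1 against 49.5 and 77.8 in the other WT-Sham libraries, and to 671 to 971 in miKO-tFCI against 148 to 212 in WT-tFCI. In miKO-tFCI replicate 1 the astrocyte markers summed to 290 CPM and the endothelial markers to 199, against 100 to 101 and 72.9 to 73.5 in the other miKO-tFCI libraries, and its microglial sum was the lowest. WT-tFCI replicate 1, also of batch 1, likewise stood above its group. Its astrocyte markers summed to 97.3 CPM and its endothelial markers to 131, against 33.9 to 35.3 and 42.2 to 42.4 in the other WT-tFCI libraries. The B cell markers summed to 266 to 330 CPM in WT-tFCI against 151 to 155 in miKO-tFCI, and to 420 to 513 in WT-Sham against 329 to 430 in miKO-Sham. The erythroid markers summed to 4.41 to 17.6 CPM in WT-Sham and 22.0 to 68.4 in miKO-Sham. Border-associated macrophage markers summed to 75.4 to 105.4 CPM in WT-Sham, 42.04 to 188.5 in miKO-Sham, 108.3 to 195.6 in WT-tFCI and 179.7 to 415.6 in miKO-tFCI. Neuron markers summed to 1.436 to 3.361 CPM in WT-Sham, 11.27 to 16.65 in miKO-Sham, 4.752 to 11.85 in WT-tFCI and 8.797 to 15.38 in miKO-tFCI. The part of these differences in the histone results was not tested.

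The histone genes were read at very different levels. Hist1h2bc, Hist1h1c and Hist1h1e together held 50.8% of the summed histone CPM over all libraries. Of the 67 genes, 34 passed the filter on low counts and were tested, 5 of H1, 8 of H2A, 7 of H2B, 7 of H3 and 7 of H4. The other 33 held 2.47% of all histone counts, with at most 21 counts in any library, and 3 of them (Hist1h2aa, Hist1h2ba and Hist2h3c1) had no count anywhere. For 24 of the 67, less than 50% of the 150-base stretches of their transcripts were found in no other gene. The other genes counted were near-identical copies and also genes annotated over the same bases, on either strand. Hist2h3c1 had no stretch of its own, so its lack of counts does not show that it was silent. A read from a stretch that copies share cannot be placed uniquely by itself, and how many of the 24 this concerns was not counted. By the study's methods reads came in pairs, and placement by the other read of a pair was not considered. All 18 H2A genes also shared exonic bases with a gene on the other strand, and in 17 of them a short predicted miRNA gene of 129 to 144 bases lay inside the H2A gene. These inner genes held 2359 counts over all libraries, so the H2A levels are uncertain.

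Summed over all 67 genes, the clustered histones read lower in miKO than in WT in both surgical settings. The sum was 518, 406 and 326 CPM in WT-Sham replicates 1 to 3 and 202, 225 and 162 in miKO-Sham. After tFCI the WT libraries summed to 395, 475 and 454 CPM and the miKO libraries to 301, 241 and 229. No miKO library reached the lowest WT library of the same surgery. The mean sum was 52.9% lower in miKO-Sham than in WT-Sham and 41.7% lower in miKO-tFCI than in WT-tFCI. Without the 4 genes with the highest CPM, the rest summed to 166 to 198 CPM in WT-Sham against 82.6 to 99.5 in miKO-Sham, and to 151 to 199 in WT-tFCI against 89.4 to 106 in miKO-tFCI, so that the groups again did not overlap. In bulk libraries, fewer cells that carry such transcripts and less of them per cell cannot be told apart.

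Every histone type was lower in miKO-Sham than in WT-Sham. The mean summed CPM was 56.3% lower for H1, 52.2% for H2A, 53.7% for H2B, 61.0% for H3 and 41.5% for H4. After tFCI it was 48.4% lower in miKO for H1, 42.3% for H2A, 32.7% for H2B, 62.5% for H3 and 35.0% for H4. The libraries of the 2 genotypes did not overlap within either surgery for H1, H2A, H3 and H4. For H2B they did not overlap in Sham, whereas after tFCI miKO replicate 1 read 137 CPM, above the lowest WT-tFCI library at 136, and the other miKO-tFCI libraries read 72.4 and 82.1. H1 made up 28.9% to 40.4% of the summed histone CPM across libraries, and H3 between 3.16% and 7.92%.

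**Figure D1:**
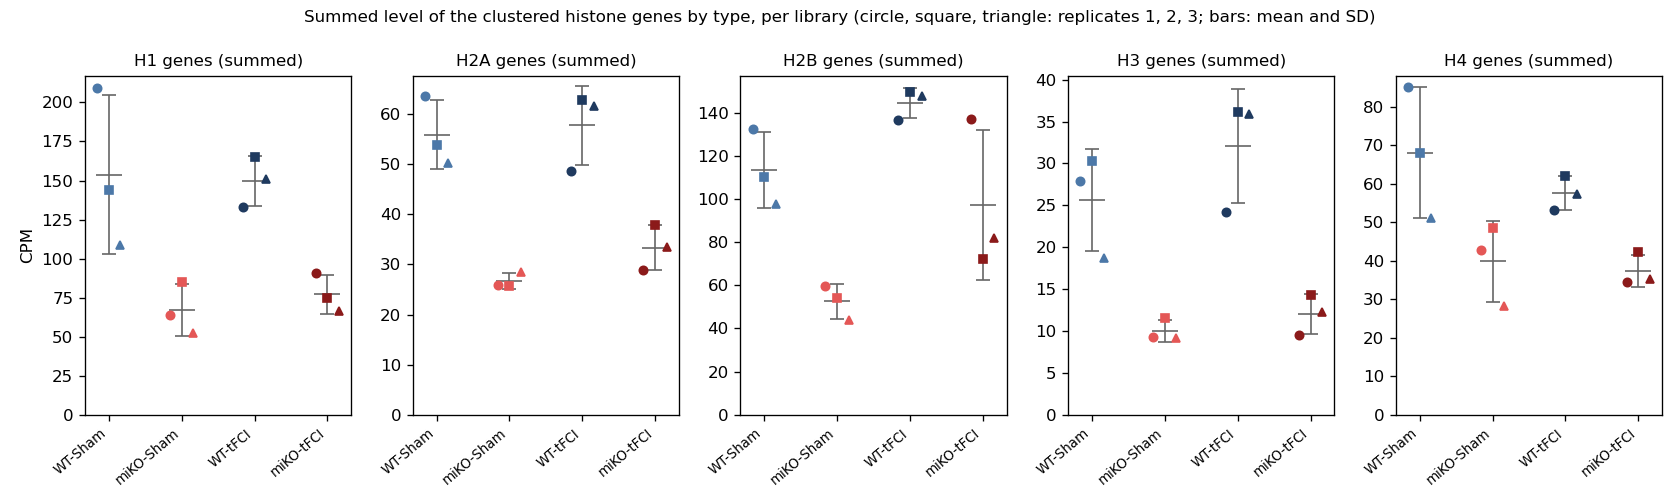
Summed CPM of the clustered histone genes of each type (y axis, from 0) in the 3 libraries of each group (x axis), with the mean and SD. In every panel the miKO libraries lie below the WT libraries of the same surgery, except H2B after tFCI, where miKO-tFCI replicate 1 (137 CPM) lies within the WT range.

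In Sham animals, clustered histone transcripts of every type were lower in miKO microglia, and no tested member was called higher. Of the 34 tested genes, 12 were called lower in miKO-Sham than in WT-Sham (35.3%, where 6.8% of all 16451 tested genes were called lower) and 0 were called higher (8.58% of all tested genes). Genes were called by edgeR's quasi-likelihood test where the log2 fold change exceeded 0.58 in size and the p-value, adjusted by Benjamini-Hochberg, was under 0.05. At an unadjusted p under 0.05, 17 members were lower and 0 higher, where 13.9% and 16.7% of all tested genes were. DESeq2 called 13 lower and 0 higher, against 7.37% and 9.48% of all tested genes. The median log2 fold change of the tested members was -0.97, against 0.04 over all tested genes, and 30 of the 34 lay below 0. By type, 2 of 5 H1 genes, 3 of 8 H2A, 3 of 7 H2B, 2 of 7 H3 and 2 of 7 H4 genes were called lower. The members that passed the filter include 9 that reached its level of 1.22 CPM in all WT-Sham libraries but not in all miKO-Sham libraries, so these counts describe the members and support nothing further. Wherever the level of 1.22 CPM is used, CPM was taken without the TMM factors. Among the 17 members that reached this level throughout both groups, 11 were called lower. The share over all genes that reached it in this way was not computed. Without WT-Sham replicate 1, the library with the high neutrophil markers, 9 members were called lower.

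Among the linker histones, Hist1h1c (chr13:23738808-23740367, 1 exon), which encodes H1.2, had the smallest adjusted p. It read 79.3, 73.7 and 63.6 CPM in WT-Sham and 20.4, 26.5 and 20.6 in miKO-Sham, so that the 2 groups were far apart. Its log2 fold change was -1.68 ± 0.17 (SE, edgeR adjusted p = 8.04e-06), with -1.95 in batch 1 and -1.54 in batch 2. Hist1h1d (chr13:23553262-23560686), which encodes H1.3, read 24.4, 19.5 and 13.8 CPM in WT-Sham and 5.69, 9.30 and 3.20 in miKO-Sham, again without overlap. Its log2 fold change was -1.66 ± 0.32 (SE, edgeR adjusted p = 0.00198). Hist1h1e, for H1.4, had the second highest level per kilobase of the H1 genes and behaved less uniformly. It read 102.2, 49.3 and 30.4 CPM in WT-Sham against 36.7, 48.4 and 27.8 in miKO-Sham, with WT-Sham replicate 1 far above the others and the groups overlapping. It was not called, at -0.60 ± 0.29 (SE, edgeR adjusted p = 0.186), with -1.47 in batch 1 and -0.08 in batch 2. It shares exonic bases with Hist1h2be on the same strand.

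Of the core histones, Hist1h2ae (chr13:23570517-23571220), the H2A gene with the highest level per kilobase of exon, read 13.6, 8.63 and 7.69 CPM in WT-Sham and 3.47, 1.11 and 2.82 in miKO-Sham. The groups did not overlap, and the log2 fold change was -1.998 ± 0.33 (SE, edgeR adjusted p = 0.000606), the lowest of all tested members. Hist1h2bc, the histone gene with the highest level per kilobase, read 104.0, 59.4 and 47.5 CPM in WT-Sham and 41.9, 36.2 and 23.6 in miKO-Sham. It was called at -1.005 ± 0.22 (SE, edgeR adjusted p = 0.00521), with WT-Sham replicate 1 above the rest of its group. Hist1h2bg, another H2B gene, was called lower at -1.79 ± 0.40 (SE, edgeR adjusted p = 0.00543), yet its groups overlapped. It read 6.61, 26.0 and 26.7 CPM in WT-Sham against 3.89, 3.19 and 8.33 in miKO-Sham, and the difference was -0.73 in batch 1 and -2.29 in batch 2.

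The H3 gene Hist1h3d (chr13:23575763-23577011) read 11.7, 15.1 and 7.59 CPM in WT-Sham and 2.64, 4.02 and 3.33 in miKO-Sham. No library of miKO-Sham reached the lowest of WT-Sham, and the log2 fold change was -1.82 ± 0.37 (SE, edgeR adjusted p = 0.00276). Hist1h3e, the next H3 gene by level per kilobase, read 6.37, 6.95 and 4.31 CPM against 1.67, 2.91 and 2.56 and was called at -1.34 ± 0.41 (SE, edgeR adjusted p = 0.0344). For H4, Hist1h4d (chr13:23581598-23582735) read 41.5, 26.1 and 19.1 CPM in WT-Sham and 12.6, 14.2 and 7.30 in miKO-Sham. It was lower by a log2 fold change of -1.33 ± 0.28 (SE, edgeR adjusted p = 0.00426), without overlap. Hist1h4c read 9.62, 11.7 and 9.64 CPM in WT-Sham and 7.64, 6.52 and 4.10 in miKO-Sham and did not pass, at -0.75 ± 0.32 (SE, edgeR adjusted p = 0.122), although the groups did not overlap. Hist2h2aa2, the H2A gene with the next highest level per kilobase, read 6.13, 8.74 and 6.46 CPM against 4.44, 4.86 and 4.36 and was not called (-0.63 ± 0.31, edgeR adjusted p = 0.192). None of its 150-base stretches was unique to it, with genes annotated over the same bases counted.

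The other 4 genes called lower in miKO-Sham were Hist1h2ac (log2 fold change -1.58), Hist3h2a (-0.78), Hist1h2be (-0.72) and Hist2h4 (-1.46). The groups did not overlap for any of them, which adds no support to calls made from the same libraries. Of the 12 calls, those of Hist1h1c, Hist1h1d, Hist1h2ae, Hist1h2ac, Hist1h2bg, Hist1h3d and Hist1h4d were kept under every alternative setting in which the gene was tested, and that of Hist1h2bc was lost only without the batch term (edgeR adjusted p = 0.0655). The other calls were lost when single libraries were left out, with the highest edgeR adjusted p at 0.148 for Hist1h3e and 0.140 for Hist2h4, both without WT-Sham replicate 1, and at 0.0888 for Hist3h2a without the same library. Hist1h2be lost its call without WT-Sham replicate 2 or 3 or any miKO-Sham library.

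**Figure D2:**
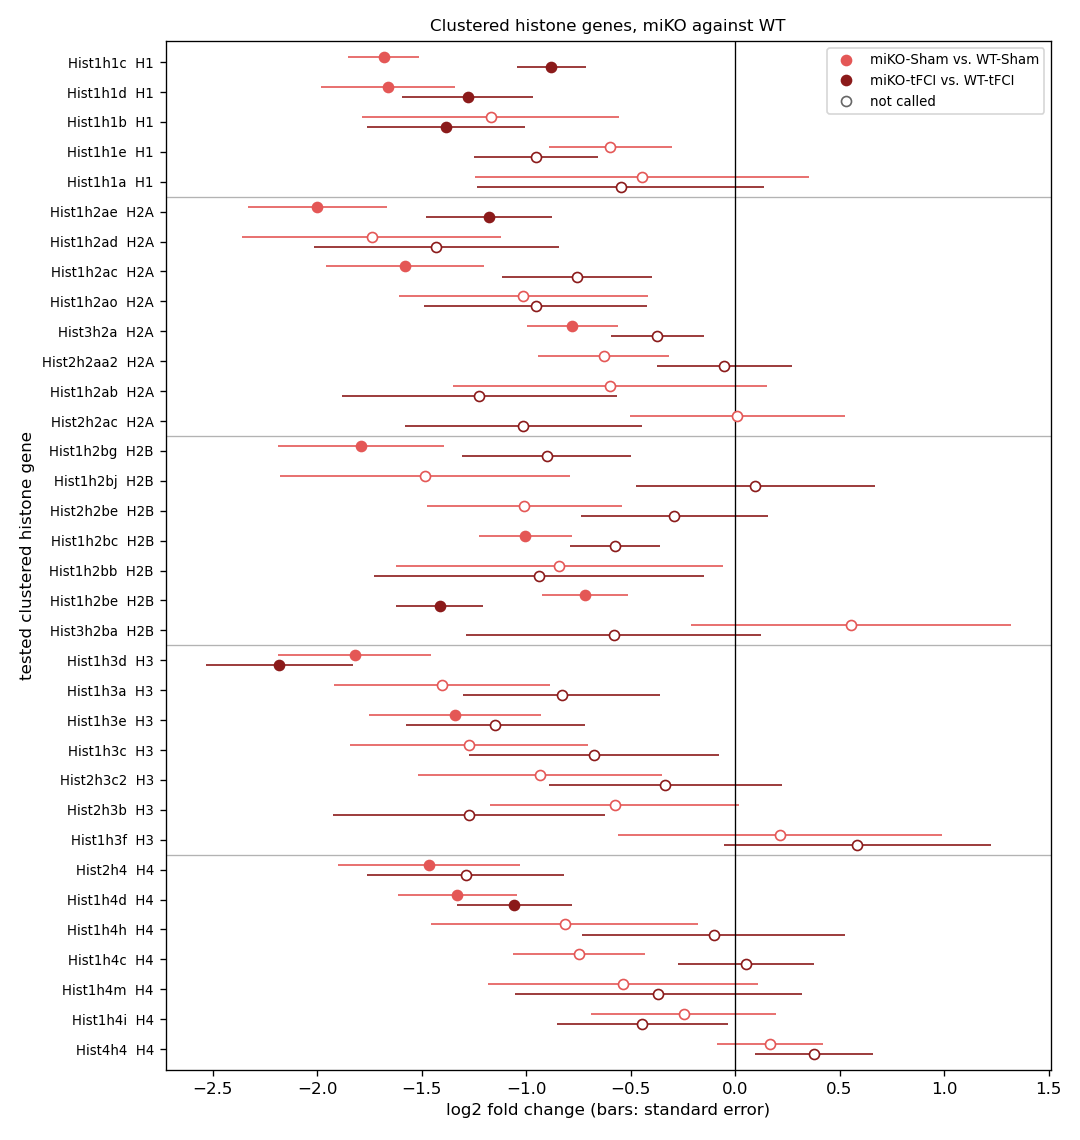
Log2 fold change of the 34 tested clustered histone genes (rows, grouped by type) in miKO against WT, in Sham (light) and after tFCI (dark), with bars for the standard error and filled points for called genes. In each of the 2 comparisons 30 of 34 points lie below 0, and Hist4h4 and Hist1h3f lie above 0 in both.

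After tFCI the clustered histones were again lower in miKO microglia. Of the 34 tested genes, 7 were called lower in miKO-tFCI than in WT-tFCI (20.6%, against 4.71% of all tested genes) and 0 higher (4.08% of all tested genes). At an unadjusted p under 0.05, edgeR had 13 lower (11.9% of all tested genes) and 0 higher (14%), and DESeq2 called 8 lower (5.15%) and 0 higher (5.29%). The median log2 fold change was -0.85, against 0.04 over all tested genes. The 7 were Hist1h1b, Hist1h1c and Hist1h1d of H1, Hist1h2ae of H2A, Hist1h2be of H2B, Hist1h3d of H3 and Hist1h4d of H4. For none of them did the groups overlap. The same libraries gave the calls, and the share of all genes without overlap was not counted, so this adds no support. The tested members include 7 that reached 1.22 CPM in all WT-tFCI but not in all miKO-tFCI libraries and 1 for which the reverse held, so these counts too describe the members and support nothing further. All 7 lower calls were among the 19 that reached it throughout both groups, and the share over all genes that did so was not computed. The count of 7 rested on single libraries, with 3 lower without WT-tFCI replicate 2 or 3 and 4 without miKO-tFCI replicate 2 or 3. Without miKO-tFCI replicate 1, the library with the highest astrocyte and endothelial markers, 5 were called lower.

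The H2B gene Hist1h2be (chr13:23583670-23621124, 2 exons) had the smallest adjusted p. It read 13.8, 16.4 and 16.8 CPM in WT-tFCI and 4.65, 7.79 and 5.31 in miKO-tFCI, for a log2 fold change of -1.41 ± 0.21 (SE, edgeR adjusted p = 0.000716). In the Sham groups it read 11.2, 15.4 and 15.2 CPM in WT and 6.80, 9.16 and 9.35 in miKO. Hist1h3d had the lowest fold change of all tested members. It read 12.45, 22.0 and 24.4 CPM in WT-tFCI and 2.17, 7.42 and 3.58 in miKO-tFCI, at -2.18 ± 0.35 (SE, edgeR adjusted p = 0.00139). Hist1h1c read 63.6, 84.7 and 76.8 CPM in WT-tFCI and 47.9, 38.7 and 35.7 in miKO-tFCI. Its log2 fold change was -0.88 ± 0.16 (SE, edgeR adjusted p = 0.00391), with -0.41 in batch 1 and -1.11 in batch 2. The calls of these 3 genes were kept under every alternative setting in which they were tested.

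The other 4 calls depended on single libraries. Hist1h1d read 14.8, 17.8 and 17.4 CPM in WT-tFCI and 6.81, 5.91 and 7.91 in miKO-tFCI (log2 fold change -1.28 ± 0.31, edgeR adjusted p = 0.0188), and its adjusted p was 0.0786 without WT-tFCI replicate 3. Hist1h2ae read 12.6, 14.7 and 15.7 CPM against 8.05, 5.66 and 5.81 (-1.18 ± 0.30, edgeR adjusted p = 0.0225), and its adjusted p was 0.132 without the same library. Hist1h4d read 30.0, 35.9 and 36.3 CPM against 14.8, 20.9 and 13.7 (-1.06 ± 0.27, edgeR adjusted p = 0.0248), and had an adjusted p of 0.111 without it. The call of Hist1h1b, at -1.38 ± 0.38 (SE, edgeR adjusted p = 0.0325), was lost without WT-tFCI replicate 2 (0.177) and without 3 other libraries. In all 4 genes every miKO-tFCI library was below every WT-tFCI library, which adds no support to calls made from the same libraries.

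Several abundant members did not pass after tFCI. Hist1h1e read 43.2, 45.9 and 43.3 CPM in WT-tFCI and 26.0, 24.4 and 18.9 in miKO-tFCI, without overlap, and missed the threshold at -0.95 ± 0.30 (SE, edgeR adjusted p = 0.0561). It was called lower under 12 of 22 alternative settings, by DESeq2 (-0.94, DESeq2 adjusted p = 0.0236) and with the replicate number as a block (-0.97, edgeR adjusted p = 0.0360) among them. For these groups the same-numbered libraries deviated together, with correlations of 0.67, 0.33 and 0.32, from which the batch was not removed. Hist1h2bc read 107.6, 109.8 and 105.3 CPM in WT-tFCI and 122.7, 51.7 and 59.9 in miKO-tFCI, where replicate 1 stood above all WT-tFCI libraries. It was not called (-0.58 ± 0.22, edgeR adjusted p = 0.107), and it was called without that library (-0.83, edgeR adjusted p = 0.0428) and without WT-tFCI replicate 1 (-0.90, 0.0183). Hist1h2bg read 6.34, 8.43 and 9.503 CPM against 1.96, 3.90 and 8.28 and overlapped. Hist1h3e read 2.51, 4.16 and 3.29 CPM against 0.929, 1.13 and 2.47, without overlap and without a call. Hist1h4c, at 4.67, 5.08 and 5.48 CPM in WT-tFCI and 3.20, 6.28 and 6.55 in miKO-tFCI, and Hist2h2aa2, at 2.27, 5.08 and 4.87 against 2.79, 4.02 and 4.82, overlapped.

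**Figure D3:**
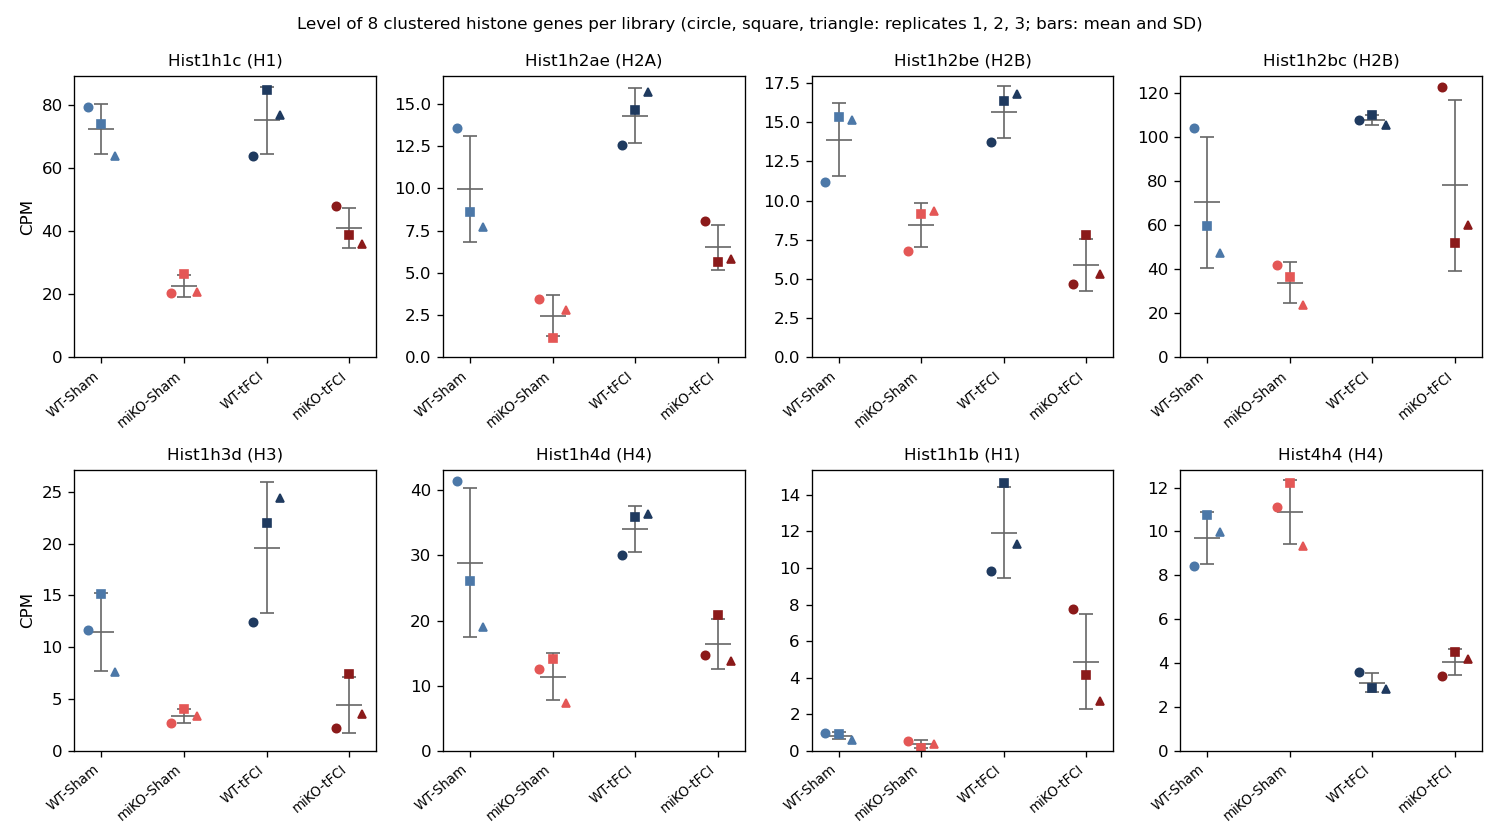
CPM of 8 clustered histone genes (y axis, from 0) in the 3 libraries of each group (x axis), with the mean and SD. Hist1h1c, Hist1h2ae, Hist1h2be, Hist1h2bc, Hist1h3d and Hist1h4d were called lower in miKO-Sham, Hist1h1b reads at most 0.962 CPM in the Sham groups and at least 2.72 after tFCI, and Hist4h4 is lower after tFCI in both genotypes.

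The Sham and tFCI comparisons of genotype share no library. Of the 34 tested members, 28 (82.4%) had a log2 fold change below 0 in both. The filter on low counts could let a member through on its WT libraries alone, so this count describes the members and is not set against all genes. Those called lower in both were Hist1h1c, Hist1h1d, Hist1h2ae, Hist1h2be, Hist1h3d and Hist1h4d. These 6 made up 50.0% of the members lower in Sham and 85.7% of those lower after tFCI. Over all tested genes 381 were called lower in both, 34% of those lower in Sham and 49.2% of those lower after tFCI. In the test of the interaction of genotype and surgery, 0 of the 34 members were called in either direction by edgeR (1.25% of all tested genes higher and 2.57% lower), with 1 higher and 1 lower at an unadjusted p under 0.05 (7.14% and 10.6% of all tested genes). DESeq2 called 1 higher, Hist1h1c, and 0 lower (2.11% and 3.79% of all tested genes). Its interaction was 0.80 ± 0.23 on the log2 scale (SE, edgeR adjusted p = 0.0786), and over 21 alternative settings its adjusted p ranged from 0.0151 to 0.404, with a call under 5 of them.

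Position and 3′ end of the members were described as well. On chromosome 13, 24 of 25 tested members lay below 0 in miKO-Sham (median log2 fold change -1.17), and on the other chromosomes 6 of 9 (-0.63). After tFCI the medians were -0.90 and -0.37. The 10 tested members with a poly(A) signal at an annotated end had a median of -0.80 in miKO-Sham and -0.51 in miKO-tFCI, and the 24 without one had -1.01 and -0.92. Other single-exon protein-coding genes, 275 of them tested, had medians of 0.14 in Sham and 0.16 after tFCI. For the 23 tested members that share no exonic base with another gene, the medians were -1.01 in Sham and -0.58 after tFCI.

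In WT microglia the mean sum of the clustered histones differed little after tFCI, and the batches went opposite ways. It was 417 ± 96.3 CPM (SD, n = 3) in WT-Sham and 441 ± 41.4 in WT-tFCI, with overlapping libraries. In batch 1 the sum was 518 CPM in WT-Sham, the library with the high neutrophil markers, and 395 in WT-tFCI. In batch 2 it was 406 and 326 in WT-Sham and 475 and 454 in WT-tFCI, so both tFCI libraries stood above both Sham libraries. The H1 sum likewise went from 209 to 133 CPM in batch 1, and from 144 and 109 to 165 and 151 in batch 2. In miKO the mean sum was 196 ± 31.8 CPM in Sham and 257 ± 38.3 after tFCI, a ratio of 1.31, and all miKO-tFCI libraries were above all miKO-Sham libraries. By type, the ratio of mean sums after tFCI to Sham in WT was 0.973 for H1, 1.03 for H2A, 1.27 for H2B, 1.25 for H3 and 0.844 for H4. In miKO it was 1.15, 1.25, 1.85, 1.20 and 0.938.

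Of the 34 tested members, 2 were called higher after tFCI than after Sham in WT (5.88%, against 20.9% of all tested genes) and 6 lower (17.6%, against 11.7%). In miKO-tFCI against miKO-Sham, 5 were called higher (14.7%, against 21.9% of all tested genes) and 1 lower (2.94%, against 13.9%). In WT, 4 tested members reached 1.22 CPM in all tFCI but not all Sham libraries, and for 4 the reverse held. In miKO these were 6 and 3, so these counts too describe the members and support nothing further. Of the 22 that reached it throughout both groups in WT, 1 was called higher and 6 lower. Of the 14 in miKO, 2 were called higher and 1 lower. For neither was the share over all genes that reached this level computed. The median log2 fold changes of the 34 tested members were -0.02 and 0.30, with 0.02 and 0.03 over all tested genes. The WT median was 0.26 in batch 2 alone. In WT the count higher was 1 without WT-Sham replicate 2 or 3 or WT-tFCI replicate 2, 3 without WT-Sham replicate 1 or miKO-tFCI replicate 1 or 2, and 5 without miKO-Sham replicate 2. The count lower in WT was 2 without WT-Sham replicate 2 or WT-tFCI replicate 1, and 3 without WT-Sham replicate 1 or WT-tFCI replicate 2 or 3. In miKO the count lower was 2 without WT-Sham replicate 3, miKO-Sham replicate 1 or miKO-tFCI replicate 2 or 3, and 3 without WT-Sham replicate 1.

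Hist1h1b (chr13:21779883-21780625), which encodes H1.5, was the member that rose most. It read 0.962, 0.896 and 0.616 CPM in WT-Sham and 9.81, 14.7 and 11.3 in WT-tFCI, or 6 to 8 counts per library before and 82 to 127 after. The miKO-Sham libraries read 0.555, 0.139 and 0.384 CPM (1 to 4 counts) and the miKO-tFCI libraries 7.74, 4.15 and 2.72 (22 to 75 counts). The log2 fold change was 3.88 ± 0.45 (SE, edgeR adjusted p = 1.09e-05) in WT and 3.67 ± 0.52 (edgeR adjusted p = 7.80e-05) in miKO, both fitted against few counts in Sham. Within miKO-tFCI, replicate 1 was the highest.

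Hist1h2bc was called higher after tFCI in both genotypes, by 0.71 ± 0.22 in WT (SE, edgeR adjusted p = 0.0173) and 1.14 ± 0.22 in miKO (edgeR adjusted p = 0.000926). In WT the change was 0.05 within batch 1 and 1.01 within batch 2, and the call was lost without WT-Sham replicate 2 or 3 or WT-tFCI replicate 2 or 3. In miKO 3 more members rose that were not called in WT. Hist1h1c rose by 0.86 ± 0.17 (SE, edgeR adjusted p = 0.00105) and Hist1h2ae by 1.40 ± 0.34 (edgeR adjusted p = 0.00400). In miKO-tFCI, Hist1h1c still read below every WT library of either surgery, and Hist1h2ae below every WT-tFCI library. Hist1h2bj, with 1 to 5 counts per library in miKO-Sham and 11 to 19 in miKO-tFCI, rose by 2.08 ± 0.68 (SE, edgeR adjusted p = 0.0231), a call that was lost without any 1 of 5 libraries. The interaction of genotype and surgery, given above, was not called by edgeR for any of these, and that of Hist1h1c was called under 5 of 21 alternative settings.

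Hist4h4 (chr6:136801553-136804415) is an H4 gene that is the only member on chromosome 6. It was lower after tFCI in both genotypes and was not called between genotypes. It read 8.41, 10.8 and 9.95 CPM in WT-Sham and 11.1, 12.2 and 9.35 in miKO-Sham, where the groups overlapped. After tFCI it read 3.59, 2.89 and 2.80 CPM in WT and 3.41, 4.52 and 4.202 in miKO. It fell by 1.64 ± 0.27 on the log2 scale in WT (SE, edgeR adjusted p = 0.000282) and by 1.43 ± 0.27 in miKO (edgeR adjusted p = 0.000629), in both batches, and the calls were kept under every alternative setting in which it was tested.

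The other members called lower in WT after tFCI rested on less. Hist1h4c fell by 1.02 ± 0.32 on the log2 scale (SE, edgeR adjusted p = 0.0199), from the WT-Sham values above to 4.67, 5.08 and 5.48 CPM. Hist3h2a (chr11:58954685-58956830) read 15.5, 12.8 and 15.5 CPM in WT-Sham, 7.78, 9.43 and 8.33 in miKO-Sham, 7.66, 10.3 and 9.38 in WT-tFCI and 7.43, 7.16 and 6.43 in miKO-tFCI. It fell by 0.68 ± 0.21 after tFCI in WT (SE, edgeR adjusted p = 0.0207), so that WT-Sham stood above the other 3 groups. Hist2h4 (-1.29), Hist1h2bg (-1.12, groups overlapping, -0.06 in batch 1) and Hist2h2aa2 (-0.84) were also called. Each of these 5 calls was lost when at least 1 library was left out, with the highest edgeR adjusted p at 0.0609 for Hist1h4c (without WT-tFCI replicate 1), 0.114 for Hist3h2a (without WT-tFCI replicate 1), 0.149 for Hist2h4 (without WT-Sham replicate 1), 0.113 for Hist1h2bg (without WT-tFCI replicate 2) and 0.202 for Hist2h2aa2 (without WT-tFCI replicate 1).

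**Figure D4:**
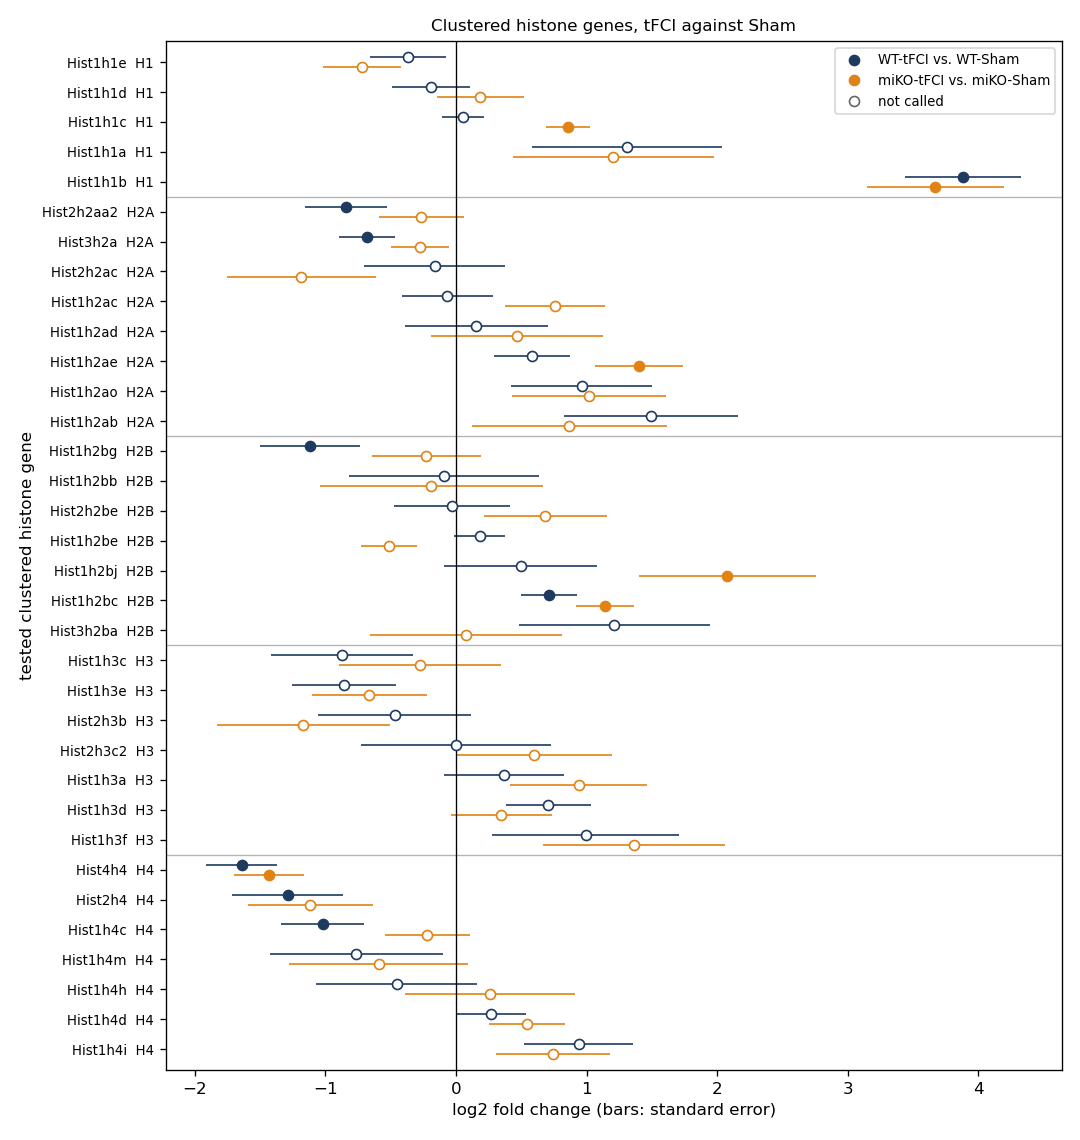
Log2 fold change of the 34 tested clustered histone genes (rows, grouped by type) in tFCI against Sham, in WT (blue) and miKO (orange), with bars for the standard error and filled points for called genes. Hist1h1b lies at 3.88 and 3.67, far to the right of the other members, and Hist4h4 is called lower in both genotypes.

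Genes of DNA replication and cell division were described beside the histones. After tFCI 26 of 28 S phase genes were called higher in WT and 23 of 28 in miKO. Over all tested genes the shares called higher were 20.9% in WT and 21.9% in miKO. Those with the smallest adjusted p in WT were Rrm2, a subunit of ribonucleotide reductase, at a log2 fold change of 4.65, the DNA ligase gene Lig1 at 2.78 and the replicative helicase subunit gene Mcm5 at 3.32. All 18 mitosis genes rose in both genotypes, among them Top2a (5.09 in WT), Birc5 (5.52) and Cdk1 (4.36). In miKO the leading S phase genes were Rrm2 (3.88), Mcm6 (2.79) and Uhrf1 (3.98), and the leading mitosis genes Birc5 (4.17), Top2a (3.17) and Ccnb1 (4.44). The sum of the mitosis genes rose 28.2-fold in WT and 9.01-fold in miKO. The summed histone CPM was 0.634 to 1.02 times the summed S phase CPM in WT-Sham, 0.208 to 0.333 times in miKO-Sham, 0.279 to 0.294 times in WT-tFCI and 0.138 to 0.255 times in miKO-tFCI.

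In miKO-Sham against WT-Sham, where 12 clustered histones were lower, 12 of 28 S phase genes were called higher and 0 lower, among them Gins1 (log2 fold change 1.72) and Prim1 (1.71). Of 18 mitosis genes 4 were higher, among them Top2a (1.17), Mki67 (0.96) and Cdk1 (0.68). Over all tested genes 8.58% were called higher and 6.8% lower in this comparison. In miKO-tFCI against WT-tFCI, 1 S phase gene was lower (Tk1, thymidine kinase, -0.91) and 0 higher, and 13 mitosis genes were lower, led by Mki67 (-1.24), Cenpf (-1.57) and Top2a (-0.76). Over all tested genes 4.71% were called lower and 4.08% higher in miKO-tFCI against WT-tFCI. The interaction was called lower for 4 S phase genes (Prim1 -1.78, Gins1 -1.78 and Lig1 -1.15 with the smallest adjusted p) and 11 mitosis genes. It was called lower for 2.57% of all tested genes.

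**Figure D5:**
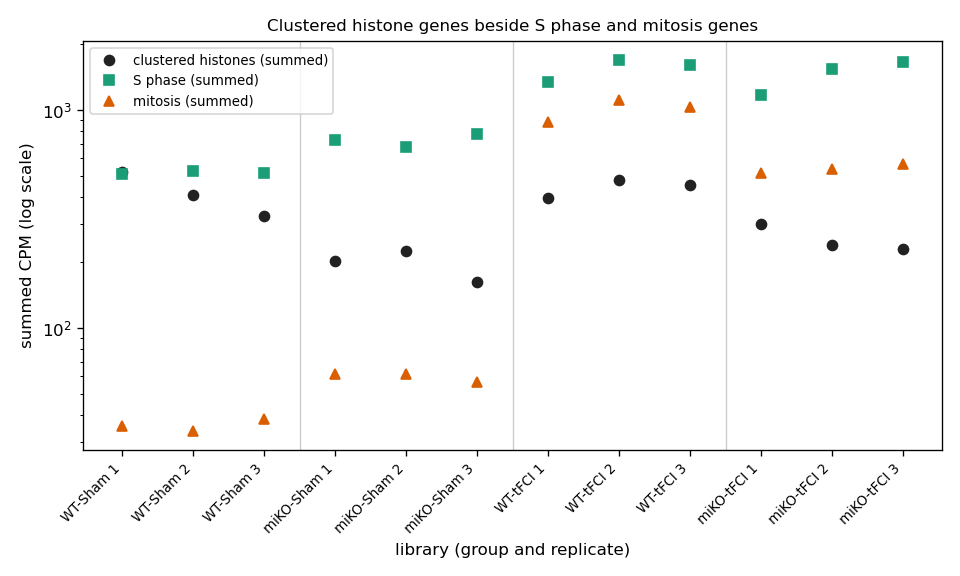
Summed CPM (y axis, log scale) of the clustered histones, the S phase list and the mitosis list in each library (x axis, group and replicate). The mitosis sum is 33.5 to 61.6 CPM in the Sham libraries and 512 to 1109 after tFCI, whereas the histone sum stays between 162 and 518 CPM throughout.

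The genes that make and process histone mRNA were also measured. Of the 20 in the list (the NPAT, SLBP and U7 snRNP machinery, 3′ processing and decay factors and cyclin E-CDK2), 1 was lower in miKO-Sham, Pou2f1 (-0.63 ± 0.18, edgeR adjusted p = 0.0242), the gene of the octamer-binding factor Oct-1, and 0 were higher. In miKO-tFCI against WT-tFCI 0 were called in either direction. With 6.8% lower and 8.58% higher among all tested genes in Sham, and 4.71% and 4.08% after tFCI, counts this small in a list of 20 are near the background. After tFCI the cyclin E genes Ccne1 (5.11 in WT and 4.004 in miKO) and Ccne2 (1.31 and 1.90) rose in both genotypes, with 2 of 20 higher in WT. In miKO 4 were higher, with Cstf2 (0.69), and 1 was lower, the U7 snRNP protein gene Lsm10 (-0.64).

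The replacement histones, whose polyadenylated mRNAs are made outside S phase as well, were also measured. Their sum was 3707 to 5460 CPM in WT-Sham and 2873 to 3195 in miKO-Sham, a mean 37.1% lower without overlap, and 3344 to 3850 in WT-tFCI and 2688 to 3368 in miKO-tFCI. The ratio of mean sums after tFCI to Sham was 0.762 in WT and 0.991 in miKO. H3f3b, which encodes the variant H3.3, held most of the sum, at 3112, 4938 and 4570 CPM in WT-Sham and 2259, 2219 and 2647 in miKO-Sham. Of 10 tested, 8 were higher after tFCI in WT and 5 in miKO, led in WT by H2afz (1.82), H2afx (2.27) and Cenpa (3.22), and H3f3b was lower in WT (-0.71). In miKO-Sham against WT-Sham H2afj was higher (0.68) and H3f3b lower (-0.80), and in miKO-tFCI against WT-tFCI H2afx (-0.62) and Cenpa (-0.86) were lower. Of 21 histone chaperone genes, Chaf1b (1.76), Dnajc9 (0.72) and Asf1b (0.96) were higher and Hjurp (-1.66) and Anp32e (-0.81) lower in miKO-Sham. Hjurp, the chaperone of CENP-A, was the only chaperone gene called in miKO-tFCI against WT-tFCI (-0.90). After tFCI in WT 6 chaperone genes were higher, led by Chaf1b (4.52), Asf1b (3.06) and Dnajc9 (1.92), and 1 lower, Cabin1 (-0.70). In miKO 8 were higher, led by Chaf1b (2.84), Nap1l1 (1.85) and Asf1b (1.76), and 2 lower, Cabin1 (-1.10) and Ubn1 (-0.65). The interaction was called lower for Dnajc9 (-0.90), Asf1b (-1.30) and Chaf1b (-1.68) and higher for Hjurp (0.76). Over all tested genes, 20.9% were higher and 11.7% lower after tFCI in WT, and 21.9% and 13.9% in miKO. Between genotypes the shares were 8.58% higher and 6.8% lower in Sham, and 4.08% and 4.71% after tFCI. For the interaction they were 1.25% and 2.57%.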

How the data were processed

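RNA was sequenced by the authors from sorted microglia (SMART-Seq v4 kit, primed on poly(A) tails), in 3 libraries per group. Replicate 1 of each group was batch 1 and replicates 2 and 3 batch 2, per the labels. The labels name a CytoFLEX SRT for sorting, the methods a Cytek Aurora. The submitters' processing notes name FastQC 0.11.9, Trim Galore, HISAT2 2.2.1, SAMtools and HTSeq 1.99.2 with builds mm10 and GRCm38.p6, with no roles. Counts per gene were deposited by the authors without normalization, and how strand and multiply aligned reads were treated is not given in the sources used here. Reads on no gene (45.3% to 52.5% of each library) and the other closing lines of the files were left out.

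Symbols, exons and transcripts came from GENCODE M21 (55141 of 55401 identifiers matched without version), promoters from RefSeq. The count tests used edgeR 4.0.16 (R 4.3.3) after filterByExpr and TMM (factors 0.864 to 1.11). Its quasi-likelihood fit took the 4 groups and the batch as terms, covered 12 libraries and 16451 genes, and was tested on simulated data. P-values were adjusted by Benjamini-Hochberg over all tested genes, and the 2 surgery comparisons each share a group with each genotype comparison. Same-numbered libraries correlated in their deviations from the group means at 0.67, 0.33 and 0.32 between WT-tFCI and miKO-tFCI. Within the other comparisons the correlations were -0.06 to 0.24. The batch was not removed from these deviations, and replicate 1 was the only batch 1 library of each group. These values therefore do not separate a pairing of the libraries from the shared batch. The main fit had no term for pairs. Alternatives were the replicate number as a block, DESeq2 1.42.0, other filters, batch handling, GC and length offsets and leaving out each library. Named with values in every library were Hdac3, the 2 members per type with the highest level per kilobase of exon and, per comparison, the 3 called members per direction with the smallest adjusted p; other called members and up to 3 called genes per direction of each pathway list are named with fewer values. The values of 1 S phase gene are not reported here. Values for other groups of a named gene, and its position, are added where they help. The members and lists were chosen with earlier results of these data known. Replicates 1 and 2 of miKO-Sham were the most alike pair (chi-square 2.82 per degree of freedom), yet differed beyond sampling noise and were counted separately. P-values measure the spread between pooled libraries, and counting error is large for members with few counts.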

Additional observations from a re-analysis of the deposited data

How the results depend on the processing

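Relative to the 12 histone genes lower in miKO-Sham, the alternatives gave 8 to 15, and to the 7 lower in miKO-tFCI they gave 3 to 11, with 0 higher in both under every alternative run. In miKO-tFCI against WT-tFCI, 11 were lower with no filter on low counts and 4 without the batch term, and the median was -0.58 without members that overlap another gene. In WT-tFCI against WT-Sham, the count higher was 1 with at least 10 counts in every library, without the batch term and with GC content and length offsets (with or without the block), 5 with the compared groups alone and 6 in batch 2, and the count lower was 3 without the batch term or in batch 2. Its median was 0.55 with no filter and 0.26 in batch 2. In miKO-tFCI against miKO-Sham, 2 were higher with at least 10 counts in every library. The count lower was 2 with no filter, in batch 2, with the compared groups alone and with the replicate block, and 3 with the offsets, and the median was 0.54 with no filter and 0.051 with at least 10 counts. The interaction had 1 higher by DESeq2, with no filter and with the offsets (with or without the block), and a median of 0.014 in batch 2. The cause of these differences was not tested, beyond the number of genes or libraries that a setting leaves.

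Leaving out single libraries gave 8 to 13 lower in miKO-Sham (median -1.14 to -0.75), 3 to 9 lower in miKO-tFCI (-1.06 to -0.78), 1 to 5 higher and 2 to 6 lower in WT-tFCI against WT-Sham (-0.09 to 0.19), 4 to 7 higher and 1 to 3 lower in miKO-tFCI against miKO-Sham (0.18 to 0.54), and 0 to 1 higher in the interaction (0.049 to 0.46). With the replicate number as a block, 12 members were lower in miKO-Sham, 8 in miKO-tFCI and 5 in WT-tFCI, and 2 and 5 were higher after tFCI in WT and miKO. Between the tFCI groups the block changed the call of Hist1h1e alone among the named members. No named member reversed a call under any alternative. Added after the data were seen, the count with only members of at least 50% unique stretches was 12 lower in miKO-Sham and 7 in miKO-tFCI. Ranked by coding length, 6 of the 10 members with the highest levels per type stayed among them. Members with under about 10 counts per library cannot be resolved at this depth.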
